A study of Mus musculus with 8 samples.

Results

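Mural cells are the contractile and supporting cells that sit on the outer wall of blood vessels, and 892 of the 24376 cells that passed quality filters in a single-cell RNA data set of the mouse dentate gyrus carried their markers. A barcode was counted as mural when it had over 500 detected genes, under 10% mitochondrial UMIs (unique molecular identifiers, each standing for 1 captured transcript), at least 3 of Vtn, Rgs5, Higd1b, Kcnj8 and Ndufa4l2, at most 1 of the endothelial genes Cldn5, Flt1, Pecam1 and Ly6c1, and at most 1 of 9 genes of oligodendrocytes, microglia, precursors, astrocytes and neurons. The other 23484 cells served as the comparison, and 330 of them, selected by the mirrored rule on the endothelial genes, served as the nearest vessel cell type.

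The study sorted dentate gyrus cells of Ki67TD; Nestin-GFP mice to follow neural stem cells that had or had not divided. All animals carried GFP under the Nestin promoter, a creERT2 recombinase at Ki67 and a tdTomato reporter that is switched on by recombination, and all received tamoxifen for 6 days and were culled on day 8. The 7 experiments, each pooling several male and female mice, comprised 1 at 1 month of age, 3 at 2 months and 3 at 6 to 8 months (6 months in the sample labels), and were made into 8 libraries. Libraries at 2 months used 10x Version 2 chemistry and those at 1 month and at 6 to 8 months used Version 3. GFP+tdT+ and GFP+tdT- cells were sorted together, except that the first experiment at 2 months was split into a library labelled GFP+tdT+ and GFP-tdT- and a library of GFP+tdT- cells. Cells outside the sort gates are not represented, so shares of cells are shares of a sorted suspension and not of the tissue.

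Mural cells comprise pericytes, which lie in the basement membrane of capillaries that they share with the endothelium, and smooth muscle cells, which ring arterioles and venules. Endothelial cells recruit them with PDGF-B, which acts on the receptor PDGFR-beta, and signal to them through Notch3. In the brain they set vessel tone and help maintain the blood-brain barrier. Nestin promoter transgenes are known to be active in pericytes as well as in neural stem cells.

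The 5 genes that chose the cells were abundant in them and are given as a description only. Levels are given as CPM, a gene's UMIs scaled to the same total of UMIs for each cell group in each experiment. Vtn, which encodes the adhesion glycoprotein vitronectin (chr11:78499091-78502324, GRCm38), reached 22690 ± 6674 CPM in mural cells (SD, n = 7 experiments) against 12.1 ± 8.04 in endothelial and 55.8 ± 29.9 in all other cells. Rgs5, a regulator of G protein signalling (chr1:169655501-169695813), stood at 6895 ± 1040 CPM, and at 886 ± 327 in endothelial cells, 40.6% of which had a UMI. Higd1b, a hypoxia-inducible domain gene, stood at 2977 ± 714 CPM, Ndufa4l2, a paralog of a respiratory chain subunit, at 2742 ± 474 CPM, and Kcnj8, the pore of the KATP potassium channel (chr6:142564837-142571614), at 1773 ± 384 CPM.

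Some pericyte genes that the rule did not use were present in most of these cells and nearly absent from endothelial cells. Others were not: Anpep was found in a minority of mural cells, and Ebf1 averaged 294 CPM in endothelial cells. Pdgfrb, the PDGF receptor, was detected in 89.8% of mural cells. Its level per experiment was lowest at 1150 CPM, had a median of 1454 and was highest at 1671, while all other cells ranged from 4.33 to 21.6 CPM and 1 UMI was found in all endothelial cells. Atp13a5, a P-type ATPase (chr16:29231851-29378732), ranged from 968 CPM over a median of 1357 to 1686 and had no UMI in endothelial cells. Abcc9, the regulatory subunit of the same KATP channel and the neighbour of Kcnj8 (chr6:142587862-142702315), ranged from 314 CPM over 595 to 844. For these 3 genes the lowest mural experiment lay far above the highest of either comparison group. Notch3 stood at 514 ± 90.5 CPM and Anpep, aminopeptidase N, at 136 ± 31.0 CPM. Cspg4, the NG2 proteoglycan, stood at 299 ± 153 CPM, and its range of 76.1 to 468 overlapped that of all other cells, which include oligodendrocyte precursors.

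**Figure D1:**
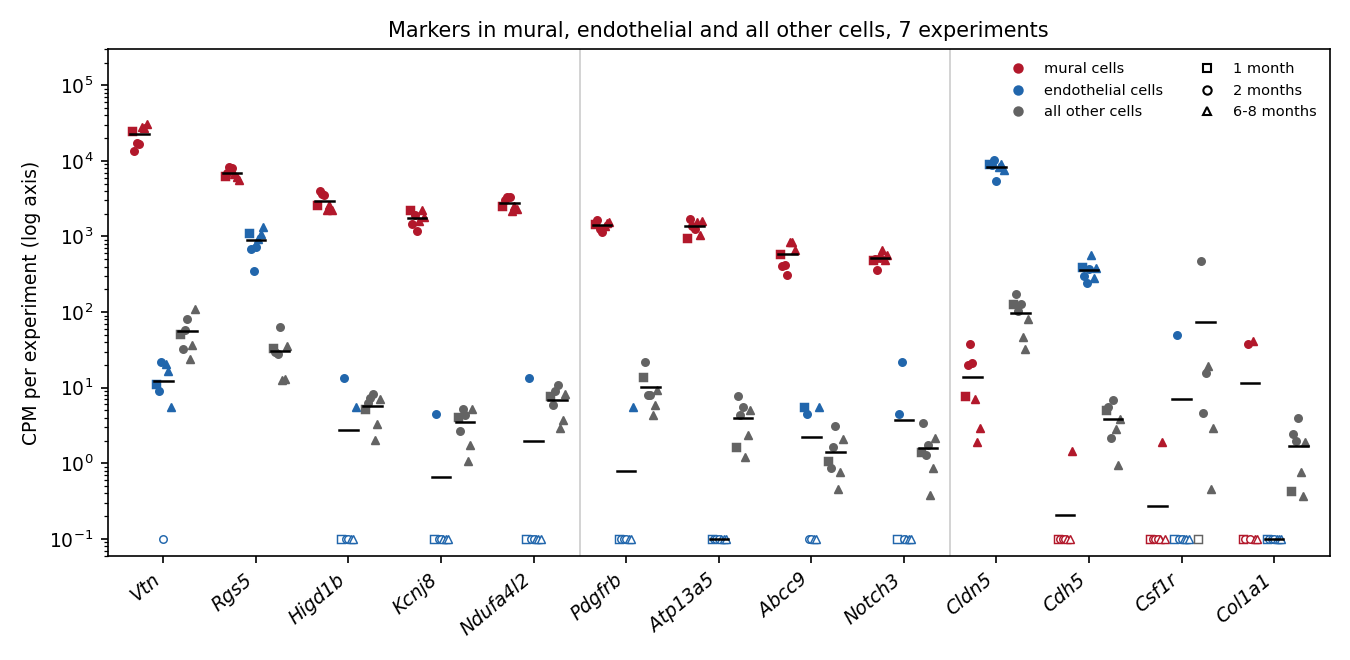
Each symbol is the level of 1 gene (CPM, log axis) in the mural, endothelial or all other cells of 1 experiment, with squares for 1 month, circles for 2 months and triangles for 6 to 8 months; black bars are means and open symbols at the bottom mark no UMI. The 5 rule genes and Pdgfrb, Atp13a5, Abcc9 and Notch3 lie highest in mural cells in all 7 experiments, and Cdh5, Csf1r and Col1a1 had 1, 1 and 9 UMIs in them.

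Some markers of other vessel cells were near 0 in mural cells and others were not. The mural cells held 1 UMI of Cdh5 (VE-cadherin), 5 of Kdr (a VEGF receptor) and 1 of Csf1r (the microglial growth factor receptor). The summed level of 22 endothelial markers outside the rule was 1171 ± 70.8 CPM, led by Esam at 587 ± 73.2 (in 66.7% of mural cells, with Emcn in 31.3% and Eng in 25.4%), against 28285 ± 3051 in endothelial cells, and Abcb1a, Sox17 and Erg were at 0. Perivascular fibroblast markers summed to 1339 ± 179 CPM. Of this sum Mgp (matrix Gla protein) gave 862 ± 145 (in 46.7% of mural cells) and Col6a1 none, whereas Lum and Col1a1 had 9 UMIs each. Other members were more frequent. Outside the 64 cells with smooth muscle genes described below, Col1a2 was in 20.9% of mural cells. Fbln1 was in 17.3% of these, Slc6a13 in 17.0% and Col3a1 in 6.88%. Dcn, a fibroblast proteoglycan, had 114 UMIs and reached 266 and 258 CPM in the second experiment at 2 months and the first at 6 to 8 months, against 0 to 41.8 in the other 5.

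Transcripts of sorted neural and glial cells were present at a low and uneven level. The 12 oligodendrocyte lineage markers summed to 645 ± 716 CPM, with 152 at 1 month, 2156 in the second experiment at 2 months and Enpp6 at 0, against 19499 ± 11337 in all other cells. Astrocyte and stem cell markers summed to 1127 ± 552 CPM, led by Apoe at 685 ± 424, none being at 0. Neuronal lineage markers summed to 131 ± 159 CPM, led by Sox11 at 47.1 ± 70.9, and microglial markers to 63.4 ± 23.4 CPM, with C1qc and Pf4 at 0. The part of these transcripts in the results below was not tested.

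Mural cells made up between 2.02% (82 of 4059 cells, exact 95% binomial interval 1.61 to 2.50) and 5.90% (199 of 3372 cells) of the cells in an experiment. They were 126 of 3288 cells (3.83%) at 1 month. At 2 months they were 165 of 4189 (3.94%), 82 of 4059 (2.02%) and 45 of 1785 (2.52%), and at 6 to 8 months 77 of 2519 (3.06%), 199 of 3372 (5.90%) and 198 of 5164 (3.83%). The shares at 2 and at 6 to 8 months overlapped. In the first experiment at 2 months, 156 of 2647 cells (5.89%) in the GFP+tdT- library were mural, against 9 of 1542 (0.584%) in the library labelled GFP+tdT+ and GFP-tdT-. Intervals cover counting error only, and the sort sets these shares. Of the barcode sequences, 59 occurred in more than 1 library, and 2 mural cells carried such a barcode, neither of them with another mural cell.

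Mural cells were small libraries. Their median was 2134 UMIs and 1209 genes per cell, against 4818 UMIs and 2069 genes in all other cells. Within experiments the median UMI count was 0.405 ± 0.0153 times that of all other cells (range 0.377 to 0.425, below 1 in 7 of 7). Against endothelial cells the ratio was 0.937 ± 0.188, with 3 of 7 experiments below 1, so the spread of this ratio included 1. The mitochondrial share was 0.681 ± 0.0701 times that of all other cells and also lower in 7 of 7. Summed mural UMIs per experiment ranged from 47818 to 691698, and total UMIs of the experiments from 4861883 to 43826338. Depth is a description here, because a rule on detected genes selects by depth. Of 12 cycling genes, Mki67 was found in 1 and Top2a in 2 mural cells. Pcna was the most frequent, in 8.97% of mural and 26.4% of all other cells, followed by Tyms in 1.68% of mural cells.

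At the edge of the rule, 25 cells had 3 of the 5 markers, 180 had 4 and 687 had 5. Pdgfrb stood at 941, 1431 and 1533 CPM in these, against 260 CPM in the 20 cells that met the other criteria with 2 markers. Of the mural cells, 92 carried 1 endothelial gene and 103 carried 1 marker of another type, while 14 and 36 cells fell outside with 2 of them. The latter 36 had a median of 7456 UMIs and 498 CPM of Pdgfrb.

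The GFP transgene was higher in mural cells than in the 4 cell groups set beside them and in all other cells pooled. eGFP reached 2402 ± 1017 CPM in mural cells (lowest 1157, median 1996, highest 3869), 784 ± 380 in cells with both Slc1a2 and Gja1, 237 ± 188 in endothelial cells and 141 ± 55.8 in cells with oligodendrocyte markers. The mural level was above that of all other cells (407 ± 205 CPM) in 7 of 7 experiments, and its lowest experiment lay above the highest of the others at 801 CPM. These transcripts were measured in the same cells as the rule genes, and all of these cells had passed a gate on GFP fluorescence, except those labelled GFP-tdT-.

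Because mural cells were shallow, the comparison was repeated with each cell thinned to 1500 UMIs. In 6 experiments at least 5 mural cells had that depth, 563 mural and 20213 other cells in all. The mean share per experiment with an eGFP UMI was then 88.7% ± 7.34 in mural and 33.7% ± 12.6 in other cells. Experiments counted alike in this mean, and the highest mural share, 97.7%, came from 6 cells. The difference was 55.0 ± 12.3 percentage points, above 0 in 6 of 6 experiments (exact two-sided sign-flip permutation test, p = 0.03125, the smallest that 6 experiments allow, 0.0625 after Benjamini-Hochberg adjustment over 8 tests). Against endothelial cells it was 63.3 ± 12.6 points in 5 of 5 experiments, where p cannot fall below 0.0625 in this exact permutation test. Thinning to 1000 UMIs kept all 7 experiments and gave 52.3 and 62.9 points (exact permutation p = 0.015625, adjusted 0.0208 for both). Microglia-marker cells, which should lack the transgene and had a median of 2887 UMIs, gave the background. In the library that held GFP-tdT- cells, 1 of 474 had an eGFP UMI. In all other libraries, from which nearly all mural cells came, it was 1 of 26 (3.85%, exact Clopper-Pearson 95% interval 0.0973 to 19.6%). Unthinned, 89.8% of mural, 28.2% of endothelial and 57.9% of all other cells had a UMI. In the library labelled GFP+tdT+ and GFP-tdT-, 5 of 9 mural cells had one, against 120 of 156 in its GFP+tdT- partner.

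The endogenous Nes gene (chr3:87971078-87980451) was not ordered like the transgene. It stood at 80.9 ± 48.4 CPM in mural cells, with no UMI in the second experiment at 2 months and 152 CPM in the third at 6 to 8 months. Endothelial cells had 213 ± 132 CPM, and all other cells 9.71 ± 7.06. Thinned to 1500 UMIs, the share with a Nes UMI was 15.3 ± 12.5 points lower in mural than in endothelial cells, in 5 of 5 experiments (exact permutation p = 0.0625, the smallest possible), and 9.15 ± 5.64 points higher than in all other cells, in 5 of 6 (exact permutation p = 0.0625). At 1000 UMIs, with 7 experiments, Nes was lower than in endothelial cells in 5 and higher in 2 (-11.6 ± 11.5 points, exact permutation p = 0.0625).

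Transcripts of the intact tdTomato segment and of WPRE were higher in mural than in endothelial cells. The 5′ floxed segment, which is read from the unrecombined locus, reached 6242 ± 1715 CPM in mural cells, 3116 ± 1136 in endothelial and 1416 ± 527 in all other cells, and was higher than in either in 7 of 7 experiments. The 3′ elements WPRE and bGHpolyA had means of 183 and 37.2 CPM in mural cells, 67.5 and 19.1 CPM in endothelial cells and 133 and 24.4 CPM in all other cells. bGHpolyA was lower in mural than in endothelial cells in the first experiment at 6 to 8 months and higher in the other 6. Thinned to 1500 UMIs, a WPRE UMI was found in 16.8% ± 5.13 of mural and 10.4% ± 3.82 of all other cells (higher in 5 of 6 experiments, exact permutation p = 0.0625), and at 1000 UMIs the share was higher than in all other and in endothelial cells by 7.50 ± 3.04 and 10.3 ± 6.06 points, in 7 of 7 experiments (exact permutation p = 0.015625, adjusted 0.0208 for both). By the study's rule on these reads, 2 of 892 mural cells (0.224%) counted as recombined, 0 of 330 endothelial cells and 1626 of 23484 other cells (6.92%). That rule requires few reads of the intact segment, a limit that 150 mural cells (16.8%), 161 endothelial cells (48.8%) and 11576 other cells (49.3%) met, so these shares are not a comparison of recombination. For endothelial cells, 0 of the 161 allows a share of up to 1.86% of those.

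**Figure D2:**
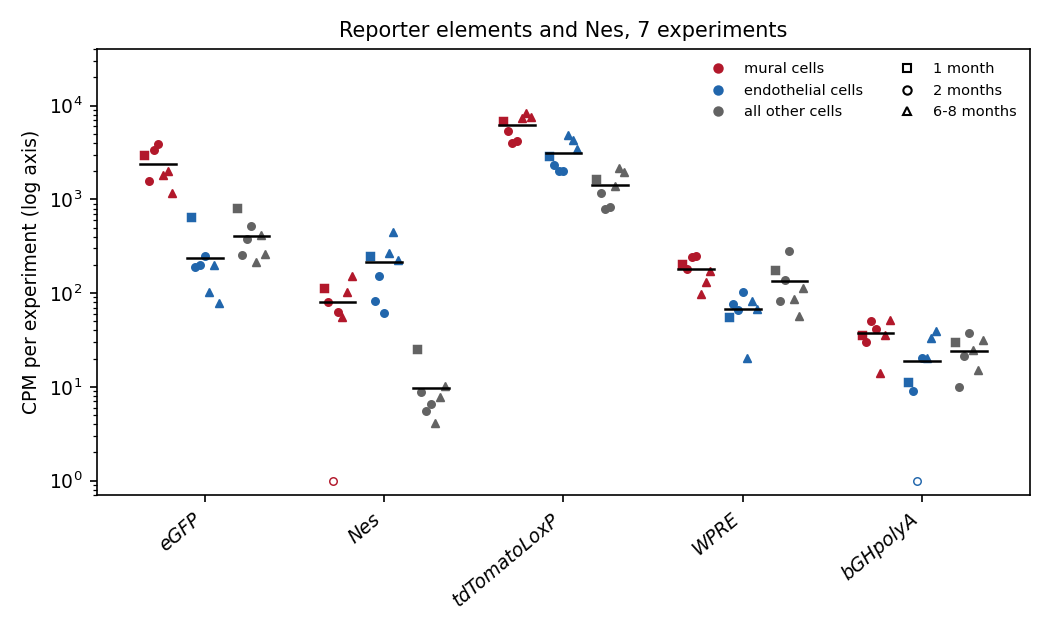
Each symbol is the level (CPM, log axis) of a reporter element or of Nes in 1 cell group of 1 experiment, drawn as in the plot of markers, with open symbols at the bottom for no UMI. eGFP and tdTomatoLoxP lie highest in mural cells in every experiment, whereas Nes lies highest in endothelial cells in 6 of 7.

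Against all other cells, the pericyte, contractile and matrix genes tested were far higher in mural cells, and the glial and neuronal genes tested far lower. Counts were summed per experiment and fitted with edgeR, with the experiment as a block. Because the cells were chosen on genes measured in the same cells, these fold changes describe the chosen cells and their spread over experiments, and the calls sort genes and are not independent evidence. Of 4209 genes found in 20% or more of either the mural or the other cells, 1130 (26.8%) were higher and 1347 (32.0%) lower at an adjusted p under 0.05, with a median log2 fold change of -0.06. The split depended on scaling: 45.6% of the called genes were higher with TMM factors, 37.9% with DESeq2 size factors and 34.2% with total UMIs, which moved the median of all genes to -0.18 and -0.24. None of the 134 called genes of the lists below changed direction with them. A list gene with few UMIs elsewhere enters only when mural cells express it, so the list counts describe the genes that entered.

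The genes with the largest differences included vessel wall enzymes and signals. Enpep, the aminopeptidase that cleaves angiotensin II, had a log2 fold change of 9.52 ± 0.36 (SE; 275 against 0.410 CPM). Nodal, a ligand of the TGF-beta family, was at 9.43 ± 0.30, Carmn, a long non-coding RNA of smooth muscle, at 9.36 ± 0.27, and Tbx3os1, annotated antisense to Tbx3, at 9.41 ± 0.26. Whether the counting used strand is not given in the sources used here, so Tbx3os1 may hold reads of its partner. Rem1 (a Ras-like GTPase), Slc38a11 (an amino acid transporter), Casq2 (calsequestrin), Aspn (a small proteoglycan) and Abcc9 lay between 9.05 and 9.23. All of these were higher in 7 of 7 experiments.

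Glial and neuronal markers were lower. Among the genes with the largest differences in this direction, Ptgds, prostaglandin D synthase (log2 fold change -5.86 ± 0.47), Nkx6-2, an oligodendrocyte transcription factor (-6.17 ± 0.52), and Ppp1r16b (-5.85 ± 0.36) had enough UMIs for a fitted value. Gpr37, a receptor of myelinating cells, had 3 UMIs in mural cells, a pooled ratio of 0.00600 (95% counting interval 0.00124 to 0.0175). Spock3, Pigz, Gjb1, Nkain4 and Omg had 1 to 3 UMIs and pooled ratios of 0.00585 to 0.0143. Every tested gene of the lists for astrocytes and stem cells (9), oligodendrocyte lineage (11) and neuronal lineage (5) was lower, as were Pcna, the 1 cycling gene tested, and Enpp2, the 1 blood or choroid plexus gene tested. No microglial gene reached the 20% of cells.

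All 25 tested pericyte genes were higher than in other cells, with a median log2 fold change of 8.09. Rgs4, a relative of Rgs5, stood at 1750 ± 422 CPM, Ifitm1, an interferon-induced membrane protein, at 1310 ± 426, and P2ry14, a receptor for UDP-sugars, at 874 ± 165. Among transcription factors, Ebf1 stood at 947 ± 111 CPM, Zic1 at 602 ± 137, Foxc1 at 154 ± 49.6, Tbx18 at 154 ± 59.4 and Tbx2 at 212 ± 91.1. Notch signalling was represented by Notch3, by its target Heyl (316 ± 91.1 CPM, log2 fold change 8.12 ± 0.29) and by the ligand Jag1 (184 ± 87.0 CPM, 3.32 ± 0.23). Of 15 vessel signalling genes tested, 14 were higher and Smad7, an inhibitor of TGF-beta signalling, was lower (20.5 ± 19.5 against 96.3 ± 70.1 CPM).

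Receptors and channels that set vessel tone formed a further group. Of 13 tested, 12 were higher, with a median log2 fold change of 6.58, and Ednrb, an endothelin receptor, was lower. Gucy1b1 and Gucy1a1, the subunits of the nitric oxide receptor guanylate cyclase, stood at 860 ± 231 and 488 ± 124 CPM, with log2 fold changes of 5.78 ± 0.20 and 5.08 ± 0.33. Pde5a, which degrades the cGMP that this enzyme makes, was at 6.58 ± 0.28, Ednra, the other endothelin receptor, at 6.11 ± 0.35, and Adora2a, an adenosine receptor, at 8.59 ± 0.29. Ano1, a calcium-activated chloride channel, and Kcnj12, a potassium channel, were at 7.67 ± 0.28 and 7.11 ± 0.31.

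Transport genes formed a group of their own. Atp1b2, a subunit of the sodium pump, stood at 749 ± 233 CPM. Slc6a20a, an imino acid transporter, ranged from 505 CPM over 655 to 824, against at most 5.50 in all other cells. Of 10 solute carriers and pump subunits tested, 9 were higher, among them Slc19a1, the folate carrier (831 ± 134 CPM), and Slc22a8, an organic anion transporter (349 ± 56.7 CPM), while Slc38a2 was lower.

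All 14 basement membrane and matrix genes tested were higher, with a median of 4.62. Nid1 (nidogen, 7.41 ± 0.28), Bgn (biglycan, 6.55 ± 0.30) and the type IV collagen genes Col4a1 and Col4a2 (5.24 ± 0.24 and 5.03 ± 0.25) were among them. All 8 contractile genes tested were higher (median 5.90), and Col1a2 and Mgp, the 2 fibroblast genes tested, were higher too (6.23 ± 0.45 and 8.54 ± 0.38). Of the 5 endothelial markers tested, Emcn, Eng, Esam and Pltp were higher and Mfsd2a was lower. All 11 immediate early genes tested were higher, with a median of 2.43, but at levels that varied widely between experiments: Fos ranged from 519 to 6950 CPM in mural cells and from 275 to 851 in all other cells. These genes respond to tissue dissociation as well as to signals in the animal, and the part of dissociation was not tested. All 5 interferon and antigen presentation genes tested were higher (median 1.81), as were Vim, Des and Lmna of 4 filament genes, Lmnb1 being lower.

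Of the respiratory chain genes that the rule did not use, mural cells had less Ndufa4 and more Cox4i2 than the other cells. Ndufa4l2 is a hypoxia-inducible paralog of Ndufa4, a subunit of complex IV. Ndufa4 (chr6:11900292-11907497) stood at 87.5 ± 40.2 CPM in mural cells, with 26.6 in the lowest experiment, 105 in the median and 129 in the highest. It stood at 745 ± 96.6 in endothelial and 814 ± 143 in all other cells, and the groups did not overlap. It was detected in 9.08% of mural, 76.1% of endothelial and 87.7% of other cells, and its log2 fold change was -3.21 ± 0.27 against all other and -3.06 ± 0.19 against endothelial cells. Of the UMIs of the pair, Ndufa4l2 held 97.0% ± 1.30 in mural, 0.233% ± 0.616 in endothelial and 0.866% ± 0.402 in all other cells. Ndufa4l2 is a gene of the rule, which largely fixes this share. Ndufa4 was uneven among mural cells: pooled, the 64 cells with smooth muscle genes described below had 338 CPM (in 43.8% of them) and the other mural cells 53.5 CPM (in 6.40%), higher in the former in 4 of 4 experiments.

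Cox4i2, the alternative form of complex IV subunit 4 (chr2:152754173-152765037), was no rule gene. It ranged from 1271 CPM over a median of 1366 to 1725 in mural cells, and did not exceed 16.7 in endothelial and 13.2 in all other cells. Its log2 fold change was 8.40 ± 0.41 against all other cells. Its partner Cox4i1 was not called (-0.15 ± 0.12; 724 ± 252 against 900 ± 314 CPM), so that Cox4i2 held 67.6% ± 6.09 of the pair's UMIs in mural cells (range 57.4 to 74.1), 1.32% ± 1.37 in endothelial and 0.681% ± 0.589 in all other cells. Higd1b, a rule gene, held 96.4% ± 0.797 of the UMIs of its pair in mural cells, a share that the rule largely fixes, and its partner Higd1a was not called against all other cells (-0.33 ± 0.14). Cox7a1 held 3.94% ± 2.96 of its pair with Cox7a2, against 1.35% ± 1.27 and 0.719% ± 0.220 in endothelial and all other cells, and the range of mural cells overlapped both. A share of UMIs sets cell groups against each other and does not compare 2 transcripts within a cell.

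Against endothelial cells, the other cell type of the vessel wall, the pericyte, vasoactive and contractile genes tested were mostly higher in mural cells. The type IV collagen genes passed the test in neither direction. Only 8 of 25 contractile and 12 of 30 vasoactive genes were tested. Most of these entered through mural cells, so the counts describe the genes that entered. Of the untested contractile genes, Smtn and Synpo2 were in more endothelial than mural cells (13.6% against 10.1% and 4.55% against 0.336%), most others in fewer. Of 2201 genes tested, 766 (34.8%) were higher and 692 (31.4%) lower in the edgeR fit. Endothelial cells were chosen by a mirrored rule, so these calls too describe the chosen cells. The endothelial sums held blood transcripts at 33.5 to 106874 CPM (Hbb-bs, a beta globin, on average 17640), against 27.1 ± 14.1 in mural cells (Enpp2 17.0, with Hbb-bt, Alas2, Folr1 and Kl at 0), and the part of blood in this comparison was not tested.

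Among the genes with the largest differences on the higher side, all but Pdgfrb had no UMI in endothelial cells. For genes with no UMI, a floor of 3 counts over the group gives a lower bound. Atp13a5 was at least 349-fold higher in mural cells (2785 UMIs). Bgn was at least 186-fold, Slc6a20a at least 161-fold, Il34, a ligand of the microglial receptor Csf1r, at least 126-fold, Carmn at least 112-fold, and Foxs1, a forkhead factor, at least 108-fold higher. Gm14964, Nodal and Zic4 were at least 101-fold, 91.4-fold and 81.9-fold higher. Pdgfrb had 3118 UMIs against 1, a pooled ratio of 1173 with a 95% counting interval of 210 to 46347. In the other direction, Abcb1a, the efflux pump P-glycoprotein, had no UMI in mural cells and was at least 468-fold lower, and the endothelial transcription factors Sox18 and Sox17 were at least 444-fold and 446-fold lower. Sema3c, Cyyr1 and Afap1l1 were at least 255-fold, 194-fold and 175-fold lower, Pglyrp1 and Ly6a had log2 fold changes of -8.70 ± 0.25 and -8.69 ± 0.24, and Ctla2a and Hmcn1 had 2 and 1 UMIs in mural cells against 929 and 344.

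Ligands and receptors of the vessel wall were divided between the cell types. Pdgfb, the ligand of Pdgfrb, was lower in mural cells (11.9 ± 9.24 against 248 ± 124 CPM, log2 fold change -4.41 ± 0.29). The endothelin gene Edn1 had 1 UMI in mural and 253 in endothelial cells, whereas its receptor Ednra had 441 and 0, at least 55.3-fold higher. The sphingosine phosphate receptors were split likewise: S1pr3 had 630 UMIs in mural and 3 in endothelial cells (ratio 79.0, 95% counting interval 26.9 to 384), and S1pr1 had 3 and 230 (ratio 0.00491). Of 20 vessel signalling genes tested, 8 were higher and 10 lower, the latter including the chemokine Cxcl12 (294 ± 77.3 against 2675 CPM) and Id1 and Id3, targets of BMP signalling. Hes1 and Tgfb1 were not called (0.04 ± 0.11 and 0.11 ± 0.18). Of 12 genes of the vasoactive list tested, 11 were higher and the ligand gene Edn1 was lower. Their median log2 fold change was 7.15, or 6.07 with genes at 0 set to their bound.

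**Figure D3:**
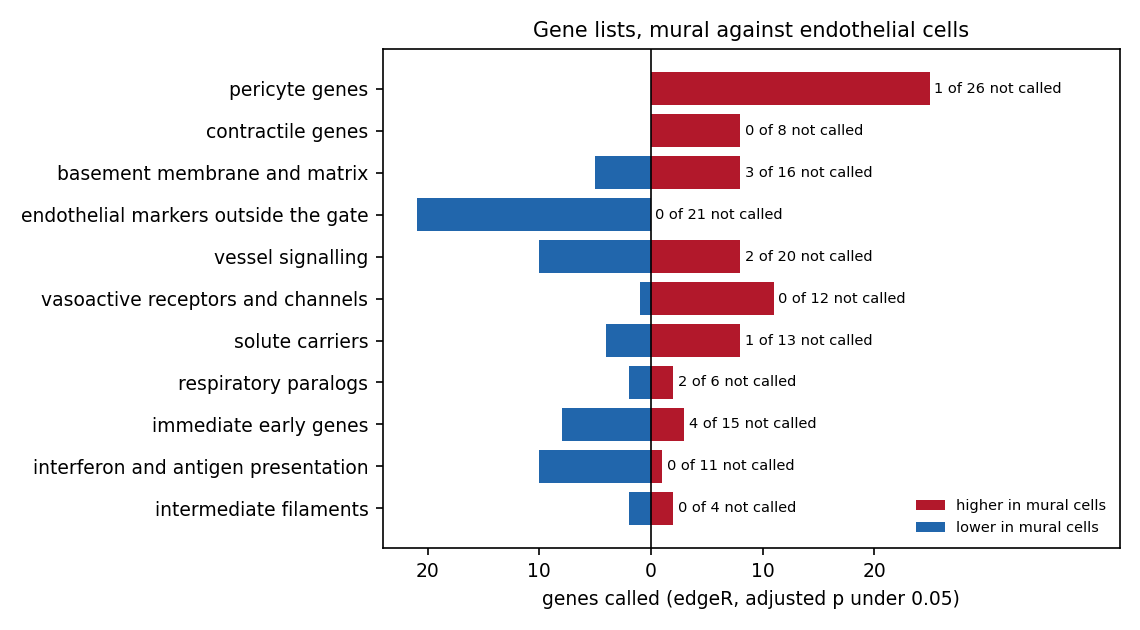
Bars give the number of genes of each list called higher (right) or lower (left) in mural than in endothelial cells by edgeR at an adjusted p under 0.05, with the number not called beside them. Of the genes tested, pericyte (25 of 26) and vasoactive (11 of 12) genes lie almost wholly on the higher side. Endothelial markers (21 of 21) lie on the lower side, and matrix genes on both (8 higher, 5 lower).

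Of the 26 pericyte genes, 25 were higher than in endothelial cells (median 7.36, or 6.50 with genes at 0 set to their bound, against 0.10 for all genes tested). The transcription factor Foxf2 was the exception, at 118 ± 81.5 CPM in mural and 123 ± 72.6 in endothelial cells (-0.18 ± 0.21), and Foxc1 and Ebf1 differed least of those called (0.91 ± 0.21 and 1.63 ± 0.13). All 8 contractile genes tested were higher, with a median of 4.57: Myl9 by 6.51 ± 0.25, Cald1 (caldesmon) by 4.79 ± 0.17, and Crip1 and Tpm1 by 1.22 ± 0.19 and 1.27 ± 0.14. Col1a2 was at least 33.4-fold higher, and Mgp higher by 3.88 ± 0.27. All 21 endothelial markers tested were lower (median -7.05), and Esam (-0.70 ± 0.11) and Eng (-1.61 ± 0.15), both known from mural cells too, were the least so.

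Matrix genes were shared unevenly. Col4a1 and Col4a2, whose genes lie head to head (chr8:11198423-11312826 on the minus strand and chr8:11312805-11449287 on the plus strand), did not pass the test (0.16 ± 0.14 and 0.09 ± 0.19), nor did Lamb2 (0.44 ± 0.21). Lama2 was at least 38.4-fold higher in mural cells, Lamc1 higher by 3.41 ± 0.27 and Nid1 by 2.77 ± 0.24. Fn1, fibronectin, had 3 UMIs in mural and 285 in endothelial cells (ratio 0.00396, 95% counting interval 0.000812 to 0.0117), and Tinagl1, Timp3, Agrn and Sparc were lower by 2.30, 0.88, 0.73 and 0.34 on the log2 scale (-2.30, -0.88, -0.73 and -0.34). The call for Sparc was lost with DESeq2.

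Transporters of the blood-brain barrier divided in the same way. Of 13 solute carriers and pump subunits tested, 8 were higher and 4 lower. Slc2a1, the glucose transporter, was at 22.0 ± 18.4 CPM in mural and 1621 ± 339 in endothelial cells, and Slc7a5, an amino acid transporter, at 15.3 ± 17.5 and 903 ± 242. Slc16a1, the monocarboxylate transporter, had 3 UMIs in mural and 288 in endothelial cells. Slc22a8 did not pass (-0.07 ± 0.13).

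The response genes tested were mostly lower in mural than in endothelial cells. Of 11 interferon and antigen presentation genes tested, 10 were lower and Ifitm2 was higher, with a median of -3.08: B2m stood at 275 ± 189 against 1395 ± 711 CPM, Isg15 at 52.8 ± 26.3 against 571 ± 253, and Ifit1 had 3 UMIs against 120. The Ifitm genes, and H2-K1, H2-D1 and H2-Q4, are families of similar sequence between which reads can be split. Of 15 immediate early genes tested, 8 were lower, among them the flow-responsive factors Klf2 (321 ± 191 against 3233 ± 838 CPM) and Klf4, and 3 were higher. Egr1 was higher by 1.90 ± 0.26, and the higher calls of Fos and Fosb (0.42 ± 0.18 and 0.67 ± 0.21) were lost with DESeq2, as were the lower call of Cyr61 and the higher call of Cox7a2. Of the other respiratory paralogs, Cox4i2 was higher and Higd1a lower, as Ndufa4 was. Nes and Vim were lower (-1.15 ± 0.25 and -2.43 ± 0.17), and Des and Lmna higher. Of the few genes of other lists that were tested, Hopx was higher, and Apoe and Mal were lower, and no gene of the microglial, neuronal, cycling or blood lists was tested.

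A minority of mural cells carried smooth muscle genes. Of the 892 cells, 64 (7.17%, exact 95% interval 5.57 to 9.07) had at least 2 of Acta2 (smooth muscle actin), Tagln (transgelin) and Myh11 (smooth muscle myosin), 71 had 1 and 757 had none. The share was 11.1% at 1 month (14 of 126 cells), 5.45%, 3.66% and 4.44% at 2 months, and 5.19%, 8.54% and 7.58% at 6 to 8 months. Its intervals overlapped between all experiments. These cells were chosen on measured values, so all that follows on them is a description, with no test, and their median depth was higher (2698 against 2076 UMIs).

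Of the 22 contractile genes that did not choose them, 20 were higher in the 64 cells when pooled over experiments, Cald1 was lower (1829 against 2217 CPM, higher in 0 of 4 experiments) and Actg2 had no UMI. Tpm2, beta-tropomyosin, stood at 2959 CPM against 208 in the other mural cells, Lmod1, leiomodin, at 183 against 14.4, Tpm1 at 2249 against 309 and Crip1 at 7752 against 1082. Myl9, the regulatory light chain of smooth muscle myosin, was 2.45 times as high but was present in 96.6% of the other mural cells too. Des, desmin, stood at 531 against 157 CPM, and Notch3, Tbx2 and Gja4, connexin 37, at 724, 444 and 965 against 504, 248 and 597. Of the 4 experiments that had enough contractile cells, Gja4 was higher in 3 and the other genes from Tpm2 on in all 4.

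Of the 26 pericyte genes, 19 were lower and 7 higher in the 64 cells when pooled. The higher ones were Notch3, Tbx2 and Slc38a11 (570 against 463 CPM), each in 4 of 4 experiments, Mcam (372 against 187 CPM) and Gja4 in 3 of 4, and Carmn and Tbx18 in 2 of 4. Among the lower ones, Abcc9 stood at 111 CPM against 727 (6.55 times lower), and its channel partner Kcnj8, a rule gene, at 222 against 2121 (9.55 times lower). P2ry14 (299 against 985), Sod3, extracellular superoxide dismutase (154 against 501), Atp13a5 (483 against 1436), Art3 (415 against 1114) and Ifitm1 (463 against 1144) were lower in 4 of 4 experiments, as was Pdgfrb (999 against 1557). Rgs5 did not follow them (7052 against 6146 CPM), and eGFP stood at 1043 against 2049 CPM.

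**Figure D4:**
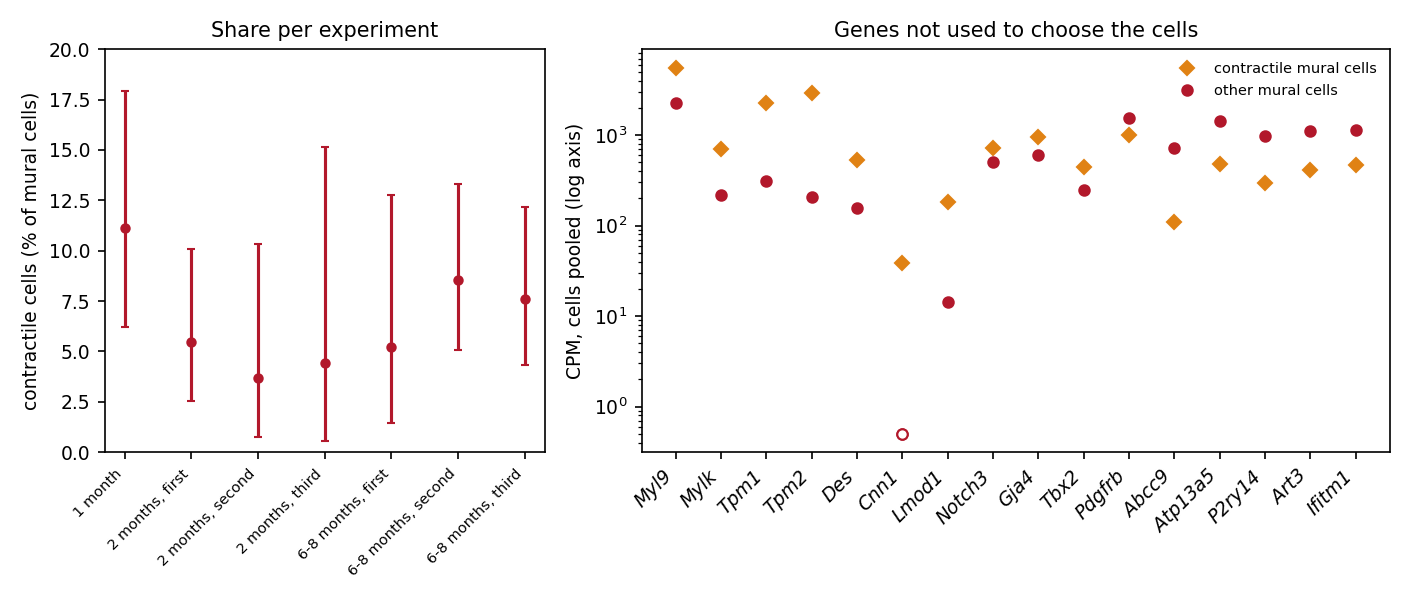
Left, the share of mural cells with at least 2 of Acta2, Tagln and Myh11 in each experiment, with exact 95% intervals (counting error only); right, pooled levels (CPM, log axis) of 16 genes in these 64 cells and in the other mural cells, the open symbol marking no UMI. The contractile genes drawn, such as Tpm2 (2959 against 208), lie higher in the 64 cells, and Abcc9 (111 against 727) and 5 other pericyte genes lie lower, while Notch3, Gja4 and Tbx2 lie higher.

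The promoter of Myl9 is shown because it alone, among the 18 contractile genes in the promoter table, held a match to a smooth muscle element. Cald1, which was also found across the mural cells, had no match. The pattern of the CArG box, the binding element of serum response factor, is its own reverse complement, so that a match on 1 strand is a match on the other. It was sought in the 250 bases before the start of each gene in the RefSeq promoter table (GRCm38.p6). Only the strict form was counted, CC and GG around a run of A or T bases, so boxes with a mismatch were missed. The first 200 of these bases of Myl9, chr2:156775214-156775413 on the plus strand, are given 5′ to 3′ with the box in capitals, which begins 161 bases before the start.
Myl9: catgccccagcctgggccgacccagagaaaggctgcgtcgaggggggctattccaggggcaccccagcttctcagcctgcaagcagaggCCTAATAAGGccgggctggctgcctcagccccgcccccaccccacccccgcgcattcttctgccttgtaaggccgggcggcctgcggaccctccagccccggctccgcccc
The box was in 482 of 32851 windows (1.47%), in the window of 1 of the 18 contractile genes found in the table and in none of 19 pericyte genes. A match of letters is a description, and absence from this window says nothing of other positions.

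Mural cells at 6 to 8 months were compared with those at 1 month, both of which used Version 3 chemistry. Of 2478 genes tested in an edgeR fit of the 3 ages, 1 (0.0404%) was higher and 5 (0.202%) were lower at 6 to 8 months at an adjusted p under 0.05, and 177 had an unadjusted p under 0.05. The 1-month arm was 1 experiment of 1 library with no spread of its own. The p-values take its spread from the 2-month experiments, of another chemistry, and from those at 6 to 8 months, and assume that it varies like them. They set that library against 3 experiments and not 1 age against another, and a gene that was not called is not shown to be alike at both ages. Pericyte genes were not called in either direction (0 of 25 tested, median 0.11), nor were the 8 contractile, 16 vasoactive or 14 vessel signalling genes tested. Apart from Col4a2 and Vim, no gene of the other lists was called either.

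Serpini1, which encodes the protease inhibitor neuroserpin (chr3:75557547-75643495), had few transcripts in the 1-month library. It stood at 25.7 CPM at 1 month (10 UMIs), at 135, 38.0 and 83.7 at 2 months, and at 154, 169 and 165 at 6 to 8 months, so the 3 oldest experiments lay above the other 4 (for 6 to 8 months against 1 month, log2 fold change 2.71 ± 0.46, edgeR adjusted p = 0.00880). Without the third experiment at 6 to 8 months the log2 fold change of Serpini1 was 2.71 and the call was lost (edgeR adjusted p = 0.115).

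Fabp5 and the collagen gene Col4a2 were lower in the 3 experiments at 6 to 8 months than in the 1-month library. Fabp5, a fatty acid binding protein, stood at 175 CPM at 1 month and at 41.9, 28.5 and 30.4 at 6 to 8 months (-2.42 ± 0.32, edgeR adjusted p = 0.00134), with the 2-month experiments in between at 79.8 to 127. Without the cells that carried any excluded marker its log2 fold change was -2.05 and its edgeR adjusted p 0.0986. Col4a2 stood at 533 CPM at 1 month and at 167, 249 and 179 at 6 to 8 months (-1.33 ± 0.24, edgeR adjusted p = 0.0162). Its transcripts at 1 month came from 90 of 126 cells, but the call was lost with DESeq2 (adjusted p = 0.651), without the third experiment at 6 to 8 months (edgeR adjusted p = 0.255), and narrowly without the second at 2 months or the first at 6 to 8 months (edgeR adjusted p = 0.0514 and 0.0549), and among cells with no excluded marker (edgeR adjusted p = 0.0765), while its log2 fold change stayed at -1.35 to -1.21 in these. Its neighbour Col4a1 stood at 759 CPM at 1 month and at 412, 399 and 286 at 6 to 8 months and was not called (edgeR adjusted p = 0.111).

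For the other 3 genes called, a few cells held most UMIs at 1 month. Of 127 UMIs of Hmgn2, a nucleosome-binding protein, 94 came from 1 cell, as did 133 of 178 of Hmgb2, a chromatin protein of dividing cells, and 157 of 250 of Vim, vimentin, came from 3 cells. Hmgn2 was at 327 CPM at 1 month against 110 ± 19.6 at 6 to 8 months, Hmgb2 at 458 against 191 ± 28.1, and Vim at 644 against 205 ± 36.0. Among cells with none of the 13 excluded markers, Hmgn2 and Hmgb2 stood at 61.4 and 126 CPM at 1 month and the direction turned (0.80 and 0.66). Vim stood at 470 CPM at 1 month in that gate, with 138 UMIs from 40 cells, and kept its direction without passing (-1.04, edgeR adjusted p = 0.247). With at least 4 markers required its log2 fold change was -0.52 (edgeR adjusted p = 0.862), and with DESeq2 -1.59 (adjusted p = 0.0728).

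**Figure D5:**
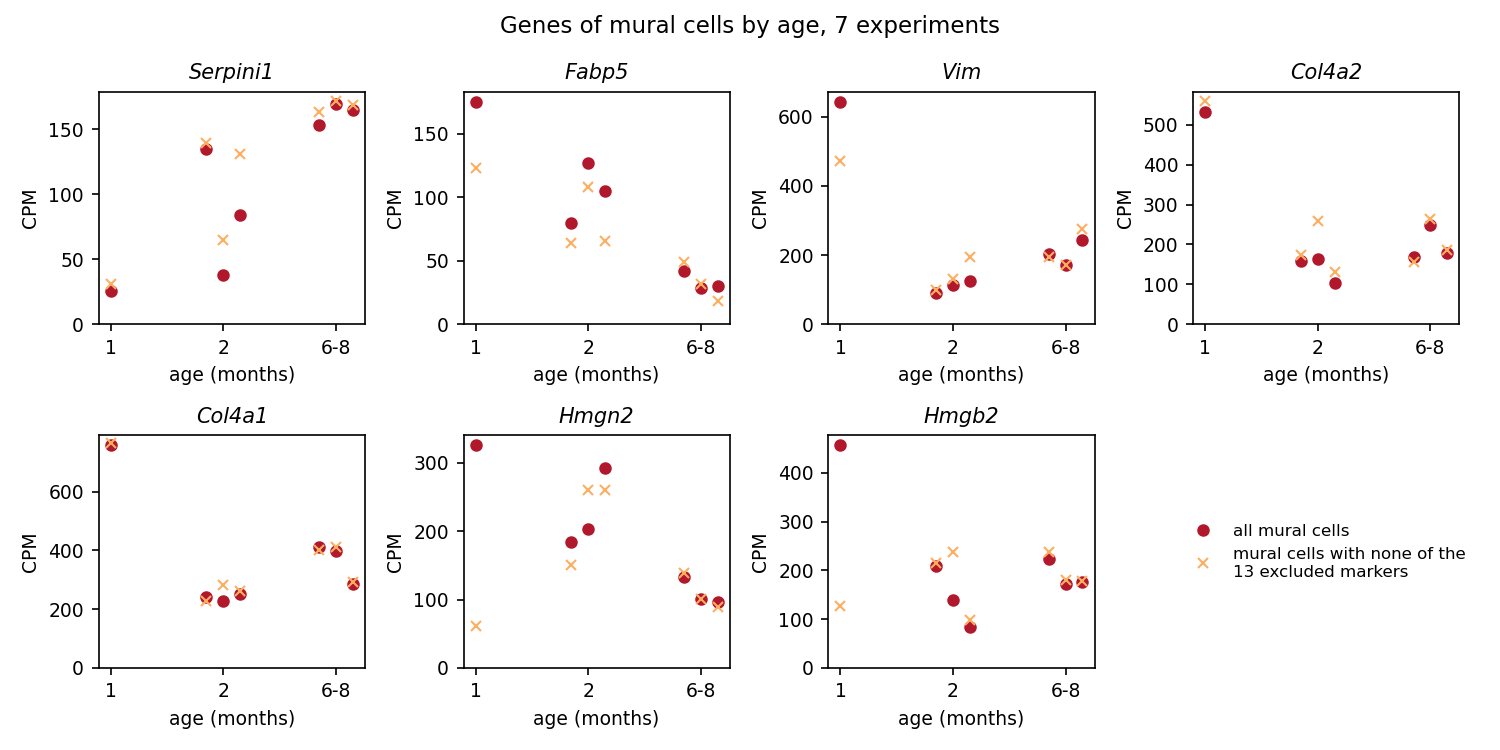
Each panel gives 1 gene's level (CPM, linear axis from 0) in mural cells of each experiment by age in months, as circles for all mural cells and crosses for those with none of the 13 excluded markers. Serpini1 rises above both younger ages at 6 to 8 months (154 to 169 CPM), Fabp5 lies lowest there, and the 1-month circles of Hmgn2 and Hmgb2 (327 and 458) lie far above their crosses (61.4 and 126).

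Between 2 months and 6 to 8 months, 220 of 2221 genes tested (9.91%) were higher and 145 (6.53%) lower at 6 to 8 months in the same edgeR fit. All libraries at 2 months used Version 2 and all at 6 to 8 months Version 3 chemistry, so age and chemistry cannot be told apart. For 324 of the 365 genes (88.8%) the 1-month experiment, which used Version 3, lay nearer to 6 to 8 months than to 2 months. In all other cells 343 (94.0%) differed in the same direction. The 365 genes were chosen for their difference between 2 and 6 to 8 months. The shares over all 2221 genes tested are not given, so both counts are a description only.

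The largest differences were as follows. Gm42418, annotated at chr17:39846958-39848788, stood at 94.8, 101 and 41.8 CPM at 2 months, at 3559, 5537 and 2111 at 6 to 8 months and at 5630 at 1 month, and AY036118, which lies within it on the other strand, was higher as well (log2 fold change 3.39 ± 0.77), though not without the first experiment at 2 months (2.47, edgeR adjusted p = 0.0617). Rpl23a, a ribosomal protein, stood at 1002, 824 and 920 CPM at 2 months, at 133, 122 and 123 at 6 to 8 months and at 160 at 1 month. Of 77 ribosomal protein genes tested, 25 were lower and 5 higher, and many have near-identical copies in the genome that can take their reads. Egln1, an oxygen sensor, had 170 UMIs against 1 (ratio 40.9, 95% counting interval 7.24 to 1624), and Lars2 and Hsd17b11 had 286 and 135 against 3 each (22.9, interval 7.76 to 112, and 10.8, interval 3.62 to 53.1). The remaining named genes were mt-Atp8, Brd1, Hnrnpa0 and Ier5l, higher by 3.04 to 3.59, and Rpl13a, Gstp1, mt-Nd1, Cox6a1, Oaz2, Rps15 and B2m, at -2.58 to -1.83.

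Hspa1b, a heat shock protein with a near-identical neighbour, was much higher in mural than in all other cells wherever Version 3 was used. It stood at 44.9, 88.8 and 167 CPM at 2 months, at 1745, 1686 and 2317 at 6 to 8 months and at 2059 at 1 month, whereas all other cells had at most 44.7 CPM at any age. Endothelial cells held it too, at 44.0 to 246 CPM at 2 months, 235 to 1005 at 6 to 8 months and 1177 at 1 month. Heat shock genes respond to dissociation, whose part was not tested. Ptgds, an abundant transcript of oligodendrocytes, was lower at 6 to 8 months (-3.33 ± 0.51). It stood at 219, 1053 and 188 CPM at 2 months and at 62.8, 47.5 and 39.0 at 6 to 8 months, and its highest experiment was the one with the most oligodendrocyte transcripts in mural cells.

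Of 25 pericyte genes tested, 6 were higher (Cspg4, Abcc9, Art3, Foxc1, Tbx2 and Lamc3) and 2 lower (Ifitm1 and Sod3) at 6 to 8 months. Abcc9 stood at 380 ± 58.0 CPM at 2 months, 783 ± 103 at 6 to 8 months and 595 at 1 month (1.00 ± 0.19), and Cspg4 at 147 ± 83.7, 416 ± 45.3 and 404 (1.26 ± 0.28). Of 14 vasoactive genes, 6 were higher, among them Gucy1a1, Gucy1b1 and Pde5a (0.66 ± 0.19, 0.62 ± 0.18 and 1.27 ± 0.28), and Adora2a was lower. Crip1, Cxcl12, Apoe, B2m, Ifitm2 and Cox4i1 were lower, and Lama2, Itgb1, Notch1, Ackr3, Slc38a2, Slc12a2, Hopx, Fosb, Ier3, H2-K1, H2-D1 and Vim higher. DESeq2 did not call 11 of the 34 list genes called here (Adora2a, Cxcl12, Fosb, Foxc1, Gucy1a1, Gucy1b1, H2-D1, Ifitm2, Itpr2, Slc12a2 and Vim), scaling by total UMIs lost Cxcl12, and DESeq2 called 183 genes in all. eGFP was not called (1665 ± 447 against 2940 ± 1214 CPM, edgeR adjusted p = 0.0739), and the intact tdTomato segment was higher at 6 to 8 months (7736 ± 544 against 4522 ± 716 CPM, tdTomatoLoxP, log2 fold change 0.78 ± 0.20).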

How the data were processed

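Dentate gyrus cells sorted from 7 pools of mice were measured with 10x droplet sequencing, in 8 libraries. The authors deposited whole-number UMI counts per gene and cell, made with Cell Ranger 3.0.2 on mm10 with the reporter elements added; cutadapt 1.18 and Seurat are named in the submitters' processing notes. Gene positions are from GENCODE M21 (GRCm38). No doublet caller was run, and the limit on markers of other types bars cells with 2 or more of them. The lowest and highest total UMIs of the experiments are given with the depth of the mural cells.

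Counts were summed over the cells of a group in each experiment (at least 10 cells) and tested with edgeR 4.0.16 (quasi-likelihood, TMM, Benjamini-Hochberg 0.05; R 4.3.3), on genes found in 20% or more of the cells in one group or the other. Experiment was a block for mural cells against other or endothelial cells of the same pools, which deviated together (correlations 0.233 to 0.585 and 0.139 to 0.290, 7 of 7 over 0.1 in both). Ages were fitted as 3 groups. Standard errors are the log2 fold change over the root of F. Detection was compared after thinning to 1500 UMIs (at least 5 cells per experiment) by an exact sign-flip test over experiments in scipy 1.17.1. Intervals are exact 95% ones.

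Named genes were the rule genes, the reporters, list members described by role, the paralog pairs and, outside the rule genes, the 10 with the largest fold change in each direction among those called, moved the same way in every experiment (for ages, groups that did not overlap) and at 100 CPM or more in either group. Alternatives were DESeq2 1.42.0, other scalings, no filter, other gates and depths, no block, and leaving out each experiment. The fits were tested on simulated data in which 200 genes changed by 2 on the log2 scale, at 1 fixed spread (dispersion 0.1). Of these, 100% were recovered against all other cells and 99.1% against endothelial cells. For 6 to 8 months, 90.8% were recovered against 2 months but only 57.8% against 1 month. The members, lists and tests were chosen with earlier results of these data known. P-values measure the spread between these experiments. Some genes are not reported here.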

Additional observations from a re-analysis of the deposited data

Results flagged for a closer look

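For 3 of the 48 values examined, 1 experiment lay apart from the other 6 by Dixon's criterion, which chance meets in about 1 of 20 groups. Against all other cells, the log2 ratio of CPM + 1 for Slc38a11 was lowest in the third experiment at 2 months (7.09, next 7.73, highest 8.21), and that for Casq2 was lowest there too (5.91, next 7.31, highest 8.27). That experiment had 45 mural cells, the fewest. Against endothelial cells, the ratio for Pdgfrb was lowest in the third experiment at 6 to 8 months (7.88, next 10.17, highest 10.71), which held the 1 endothelial UMI of that gene.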

How the results depend on the processing

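The numbers of genes called depended on the filter. Without it, 14553 genes were tested in each age comparison. Against all other cells 7360 of 22417 genes tested were called without the filter, and against endothelial cells 3151 of 15369. With the filter, 4209 and 2201 genes were tested. Without the replicate block the counts were 2148 and 1285, close to 2477 and 1458 with it. The 20 genes with the largest fold changes in each of these comparisons kept their direction and call in each of the up to 15 alternatives run per gene (298 and 300 values in all), the fit with no block among them. Of 134 called list genes in each, DESeq2 lost Pdgfa against all other cells and Cox7a2, Cyr61, Fos, Fosb and Sparc against endothelial cells, and total UMIs lost Cox7a2 and Fos against the latter. Between 6 to 8 months and 1 month, 6 genes were called, but 2 with DESeq2, 71 without the filter, 1 among cells with none of the 13 excluded markers, and 2 to 6 with each experiment left out. Hmgn2 and Hmgb2 turned to 0.80 and 0.66 among cells with no excluded marker, where the few cells that held most of their UMIs at 1 month were left out. Between 6 to 8 and 2 months, 365 genes were called, 183 with DESeq2 and 194 to 362 with each experiment left out, the lowest without the second at 6 to 8 months; the cause of the DESeq2 difference was not tested. The difference in eGFP detection between mural and other cells was 52.3 points at 1000 UMIs, 45.1 at 500 (a depth added after seeing the data) and 31.9 without thinning. Against endothelial cells it was 62.9, 51.7 and 60.4 points. With each experiment left out it was 52.6 to 58.7 and 60.5 to 68.7 points. At the deepest thinning tried only 3 experiments remained, with 34.4 and 46.3 points. The 1-month comparison rests on 126 cells of 1 experiment.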
